A study of Mus musculus with 721 samples.

Results

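The interferon-induced transmembrane genes Ifitm1, Ifitm2 and Ifitm3 and the gene for bone marrow stromal antigen 2, Bst2, were followed through the first cell fate decisions of the mouse embryo. The members were taken by symbol, and all 4 have a row among the 24483 gene rows of the count table. All 4 also passed the filter on low counts, which left 17043 genes to be tested. The table holds single-cell RNA-seq counts, each column a cell picked from a wild-type C57Bl/6Babr embryo with no treatment, at 4 stages from embryonic day E3.5, through E4.5 and E5.5, to E6.5. Cells titled E6.75 were kept with E6.5. Some wells were labelled as double and were kept.

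The cells were placed into classes by clustering, without the 4 genes, T or the listed genes described here. The inner cell mass (ICM) at E3.5 has 99 cells, of which the 90 with an embryo number came from 9 embryos and 9 entered no sum. At E4.5 there are 27 epiblast-like and 78 primitive endoderm-like (PrE-like) cells, both from the same 5 embryos. At E5.5 there are epiblast-like sums of 8 embryos, with 17 to 45 cells each, and 8 endoderm-like cells. E6.5 cells outside the endoderm were divided by T, the gene for the primitive streak factor Brachyury, at 10 CPM, a count scaled to the total of its cell or sum. This gave T-negative sums of 13 embryos, with 3 to 43 cells each, and 54 T-positive cells, of which 52 came from 4 embryos. The E6.5 endoderm-like class has 40 cells, of which 32 came from 7 embryos. The counts of all cells that shared a class and an embryo were added up where there were at least 3 such cells, so that the embryo is the replicate. The 4 embryos with T-positive sums also have T-negative sums.

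Total counts per cell ranged from 66896 to 3792936 with a median of 692863, and the sums held 1476466 to 49484352 counts. The ICM sums share no plate name with a later stage, while the names P1 and P2 recur from E4.5 to E6.5 with no label that says whether they mean the same plates, so that stage and plate cannot be told apart in the sums. The 9 E3.5 cells that entered no sum carry a plate name that some E5.5 cells also carry. The summed level of 19 endoderm markers was 11036 to 18001 CPM in E4.5 PrE-like sums and 1519 to 4154 CPM in E4.5 epiblast-like sums. At E6.5 it was 11531 to 32182 CPM in endoderm-like sums and 611 to 8458 CPM in T-negative sums, with the highest values in embryos 1 and 2 without a plate name and in embryo 9 of plate P3. A lower level in a sum can come from fewer cells with the transcript or from less of it in each cell, and both are given below.

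Ifitm proteins sit in the plasma membrane and in endosomes and hinder the fusion of enveloped viruses with the cell. Bst2, also called tetherin, is a membrane-anchored protein that holds budding virions at the cell surface. All of them can be induced by interferon through factors that bind interferon-stimulated response elements, and Ifitm1 and Ifitm3, of the family also named fragilis, are known from the precursors of germ cells in the proximal epiblast. The E3.5 ICM gives rise to the epiblast and the primitive endoderm, and the epiblast later forms the primitive streak.

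The Ifitm genes lie next to each other on chromosome 7 and Bst2 lies on chromosome 8 (build GRCm38). Ifitm1 (ENSMUSG00000025491) is at chr7:140967221-140969825 on the plus strand, Ifitm2 (ENSMUSG00000060591) at chr7:140954837-140955987 on the minus strand, Ifitm3 (ENSMUSG00000025492) at chr7:141009586-141010770 on the minus strand and Bst2 (ENSMUSG00000046718) at chr8:71534255-71537456 on the minus strand. Of stretches of 50 bases in their exons, 48.5% for Ifitm2, 10.02% for Ifitm3 and 5.02% for Ifitm1 also occur in a transcript of another gene, among them Gm45717, which lies on the same strand and shares 268 exonic bases with Ifitm2. None of the 872 stretches of Bst2 does. Counts of Ifitm2 are therefore less certain than those of Bst2, since reads from such stretches may have been dropped or assigned to a copy.

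The sequences before the start sites are shown because interferon response elements are read from them. Capitals mark the letters GAAANNGAAA, the core of such an element, searched on both strands, and overlapping matches were counted. The windows come from RefSeq (GRCm38.p6) and are written 5′ to 3′ along the gene. Positions count from the RefSeq start of the transcript.
Ifitm1 (chr7:140967926-140968027, plus strand): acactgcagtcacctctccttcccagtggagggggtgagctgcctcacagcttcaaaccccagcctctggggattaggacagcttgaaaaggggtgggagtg
Ifitm2 (chr7:140955988-140956111, minus strand): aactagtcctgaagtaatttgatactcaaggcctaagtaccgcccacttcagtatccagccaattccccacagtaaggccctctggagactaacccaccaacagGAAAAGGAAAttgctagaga
Ifitm3, before the start (chr7:141010771-141010894, minus strand): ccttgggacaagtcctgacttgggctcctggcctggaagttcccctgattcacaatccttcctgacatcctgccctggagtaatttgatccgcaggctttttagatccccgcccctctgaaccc
Ifitm3, first bases of the transcript (chr7:141010715-141010744, minus strand): agGAAAAGGAAActtctgaGAAACCGAAAc
Bst2 (chr8:71537473-71537622, minus strand): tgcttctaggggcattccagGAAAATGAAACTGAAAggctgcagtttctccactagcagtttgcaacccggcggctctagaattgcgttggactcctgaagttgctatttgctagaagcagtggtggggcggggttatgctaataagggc

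In the full window of 250 bases before to 50 bases after the start, Ifitm2 has 1 match at position -46, Ifitm3 has matches at 3 and 20, and Bst2 has overlapping matches at -130 and -124. Ifitm1 has none in its window, which is set by the RefSeq start at 140968076. The annotated span of Ifitm1 begins further upstream, at 140967221, and the sequence before that position was not searched. The letters occur in 1131 of all 32851 promoter windows (3.44%), in 394 of 11227 windows matched to tested genes (3.51%) and in 17 of the 32 listed interferon-stimulated genes with a window (53.1%).

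Ifitm1 was near absent from the ICM and present in all 5 E4.5 epiblast-like sums. In the ICM it was at 0 in 8 of 9 embryos, and the remaining embryo had 0.742 CPM from 12 counts. The E4.5 epiblast-like sums held 116.9, 139.3, 31.8, 65.03 and 97.9 CPM of Ifitm1 in embryos 1 to 5, and the PrE-like sums of the same embryos held 3.62, 1.29, 2.76, 1.21 and 5.60 CPM. The 3 groups did not overlap. In E5.5 epiblast-like sums Ifitm1 ranged from 59.4 to 140 CPM with a median of 83.8, which lies within the E4.5 epiblast-like range. At E6.5, T-negative sums ranged from 8.03 to 113.6 CPM with a median of 44.4. The E6.5 endoderm-like sums were at 0 in 4 of 7 embryos, and the other 3 held 4.64, 9.52 and 18.7 CPM, so that the higher 2 of them passed the lowest T-negative sum.

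Ifitm2 was the member that the ICM already expressed. Its ICM sums ranged from 42.8 to 166.3 CPM with a median of 88.6. The E4.5 epiblast-like sums held 287, 745, 430, 622 and 445 CPM of Ifitm2 in embryos 1 to 5, all above the ICM. The PrE-like sums of those embryos held 65.7, 56.4, 83.6, 53.2 and 31.6 CPM, within or below the ICM range. Ifitm2 lay at 404 to 679 CPM (median 451) in E5.5 epiblast-like sums and at 311 to 1448 CPM (median 666) in T-negative sums. Among the T-negative sums it was at 387 to 489 CPM in the 3 embryos of plate P2, 666 to 1098 CPM in the 3 of plate P1, 999 to 1448 CPM in the 3 of plate P3 and 311 to 718 CPM in the 4 without a plate name. The plates P1 and P3 overlapped, and the embryos without a plate name overlapped with P2 and P1. In E6.5 endoderm-like sums it ranged from 3.57 to 166.96 CPM with a median of 66.6, below every T-negative sum.

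Ifitm3 was low in the ICM and had its highest median in the E5.5 epiblast. In the ICM it was at 0 in 4 of 9 embryos and reached 21.5 CPM in the highest. The 4 embryos at 0 were all on plate P8, with sums of 3 or 4 cells, and the 4 embryos of plate P9 held 5.18 to 21.5 CPM. The E4.5 epiblast-like sums held 56.2, 147.6, 97.7, 22.7 and 69.8 CPM of Ifitm3 in embryos 1 to 5, and the PrE-like sums held 2.83, 3.66, 9.82, 6.04 and 1.37 CPM. The E4.5 epiblast-like sums thus lay above both the ICM and the PrE-like sums, and the latter pair overlapped. In E5.5 epiblast-like sums Ifitm3 ranged from 72.1 to 182.7 CPM with a median of 134.98. The T-negative sums lay below all of these, from 0 to 59.9 CPM with a median of 27.1. E6.5 endoderm-like sums were at 0 in 4 of 7 embryos and reached 5.43 CPM.

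Bst2 was low in the ICM and, among classes with several embryos, had its highest median in the E5.5 epiblast. In the E6.5 endoderm it was within the range of T-negative sums, whose upper end rests on 1 sum. In the ICM it was at 0 in 3 of 9 embryos, with a median of 3.06 and a highest value of 17.05 CPM. The E4.5 epiblast-like sums held 149.8, 60.02, 145.3, 41.9 and 111.96 CPM of Bst2 in embryos 1 to 5, and the PrE-like sums held 52.7, 26.1, 18.6, 8.51 and 40.5 CPM. In each of the 5 embryos the epiblast-like sum was the higher, although the groups overlapped. In E5.5 epiblast-like sums Bst2 ranged from 265.1 to 428 CPM with a median of 301, above every E4.5 sum. T-negative sums ranged from 50.9 to 383 CPM with a median of 117.03. The value of 383 CPM came from embryo 2 without a plate name, whose T-negative sum also held 5180 CPM of endoderm markers, and the next highest was 176.2 CPM. E6.5 endoderm-like sums ranged from 131.7 to 211.9 CPM with a median of 187.1, above all PrE-like sums of E4.5 and within the T-negative range. Their median lay above every T-negative sum but that of embryo 2 without a plate name. In embryo 6 of plate P2 the endoderm-like sum was the lower (131.7 against 176.2 CPM). In every other embryo with both sums it was the higher, from 140.7 against 129.4 CPM in embryo 2 of plate P1 to 211.9 against 80.5 CPM in E6.75 embryo 2.

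**Figure D1:**
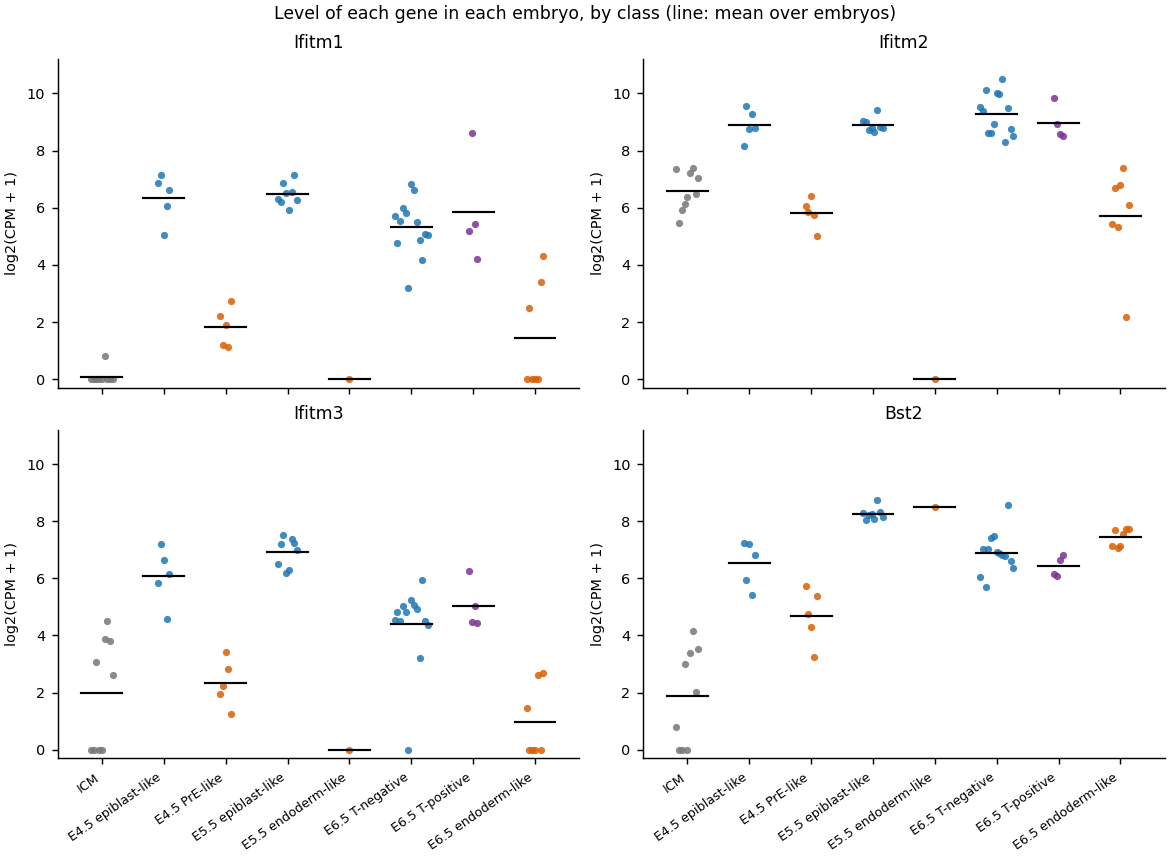
Level of Ifitm1, Ifitm2, Ifitm3 and Bst2, as log2(CPM + 1), in each embryo (points) of the 8 classes, with the mean over embryos as a line; blue marks epiblast, orange endoderm, grey ICM and purple T-positive sums. The mean of each Ifitm gene is higher in epiblast-like or T-negative sums than in PrE-like or endoderm-like sums of the same stage. Ifitm3 in T-negative sums (0 to 59.9 CPM) overlaps the ICM. Bst2 in E6.5 endoderm-like sums (131.7 to 211.9 CPM) lies within the T-negative range, which passes 176.2 CPM through 1 sum only.

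Ordered by mean over embryos, and without the E5.5 endoderm-like class of 1 embryo, Ifitm1 stood at 120.7 ± 178.7 CPM in T-positive sums (SD, n = 4), 90.6 ± 26.4 in E5.5 (n = 8) and 90.2 ± 42.5 in E4.5 epiblast-like sums (n = 5), 47.3 ± 30.2 in T-negative sums (n = 13), 4.69 ± 7.15 in E6.5 endoderm-like sums (n = 7), 2.89 ± 1.82 in PrE-like sums (n = 5) and 0.0825 ± 0.247 in the ICM (n = 9). Of these neighbours only PrE-like sums and ICM did not overlap. Ifitm2 stood at 697 ± 353 CPM in T-negative, 536 ± 260 in T-positive, 506 ± 178.7 in E4.5 and 485 ± 87.4 in E5.5 epiblast-like sums, and at 105.5 ± 47.1 in ICM, 75.6 ± 54.5 in E6.5 endoderm-like and 58.1 ± 18.96 in PrE-like sums. The only gap in this order was between the E5.5 epiblast-like sums and the ICM.

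Ifitm3 stood at 125.9 ± 42.1 CPM in E5.5 and 78.8 ± 46.99 in E4.5 epiblast-like, 37.1 ± 25.9 in T-positive, 26.1 ± 14.3 in T-negative, 6.74 ± 7.81 in ICM, 4.74 ± 3.30 in PrE-like and 1.76 ± 2.50 in E6.5 endoderm-like sums, and all neighbours in this order overlapped. Bst2 stood at 310 ± 51.2 CPM in E5.5 epiblast-like, 175.5 ± 36.6 in E6.5 endoderm-like, 133.5 ± 82.8 in T-negative, 101.8 ± 49.1 in E4.5 epiblast-like, 86.3 ± 21.4 in T-positive, 29.3 ± 17.5 in PrE-like and 5.33 ± 6.09 in ICM sums. Here E5.5 epiblast-like and E6.5 endoderm-like sums did not overlap, nor did T-positive and PrE-like sums.

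Per kilobase of exon, the scale on which genes can be compared, Ifitm2 had the highest mean level of the members in all epiblast classes, with 772 CPM per kb at E4.5, 740 at E5.5 and 1065 in T-negative sums. Bst2 had 112.7 CPM per kb in E4.5 epiblast-like sums, 343 at E5.5 and 147.8 in T-negative sums. Ifitm3 had 116.2, 185.7 and 38.5 CPM per kb and Ifitm1 had 82.4, 82.8 and 43.2 CPM per kb in the same classes. In E6.5 endoderm-like sums the order was changed, with 194.3 CPM per kb for Bst2 and 115.5 for Ifitm2.

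The first comparison asked what changed as the ICM formed the epiblast. All 4 members rose from the ICM to the E4.5 epiblast (edgeR quasi-likelihood test, Benjamini-Hochberg adjustment over 17043 genes, limits of 0.05 for the adjusted p and 1 for the log2 fold change). The background is high, since 12.8% of genes tested passed these limits upwards. The log2 fold change was 9.14 ± 1.04 (SE) for Ifitm1 (adjusted p = 1.65e-09), 2.26 ± 0.39 for Ifitm2 (adjusted p = 1.9e-05), 3.52 ± 0.90 for Ifitm3 (adjusted p = 0.00354) and 4.18 ± 0.55 for Bst2 (adjusted p = 8.06e-08). In none of the 4 did the embryos of both groups overlap, which held for 6.24% of genes tested. The Ifitm1 value rests on 12 ICM counts in 1 embryo and depends on how zeros are handled. When all sums of fewer than 5 cells were left out, among them the 5 ICM sums of plate P8 and those of E4.5 epiblast-like embryos 2 and 3, Ifitm2 (1.67, adjusted p = 0.0565) and Ifitm3 (1.80, adjusted p = 0.252) no longer passed.

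From E4.5 to E5.5 epiblast none of the 4 passed the limits by edgeR or by DESeq2, against 5.97% of genes tested by edgeR, and 1 of the 4 had an unadjusted p under 0.05. Bst2 came nearest, with a log2 fold change of 1.61 ± 0.58 (p = 0.00796, adjusted p = 0.0837), 3.04-fold, and its embryos did not overlap, which held for 9.15% of genes. It passed in 4 of 15 alternative settings, such as single wells only (1.74, adjusted p = 0.0381). The differences of Ifitm1 (0.01 ± 0.81), Ifitm2 (-0.06 ± 0.41) and Ifitm3 (0.68 ± 0.93) had wide intervals, from -1.62 to 1.63 for Ifitm1 at 2 SE. The median log2 fold change over all genes tested was 0.28 in this comparison, and 0.15 with relative log expression normalization.

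From E5.5 to the T-negative E6.5 epiblast, Ifitm3 and Bst2 fell, in a comparison in which 12.4% of genes tested passed. Ifitm3 fell by 2.27 ± 0.71 on the log2 scale (adjusted p = 0.0257), 4.82-fold, with embryos that did not overlap, as in 1.9% of genes. Bst2 fell by 1.21 ± 0.42 (adjusted p = 0.044), 2.32-fold, with overlap through embryo 2 without a plate name, and without that embryo both calls held. Ifitm1 (-0.94 ± 0.63, adjusted p = 0.356) and Ifitm2 (0.53 ± 0.33, adjusted p = 0.308) did not pass. With the E6.5 embryos of plates P1 to P3 alone, Ifitm3 had -2.28 (adjusted p = 0.0518) and Bst2 -1.36 (adjusted p = 0.0523). With the embryos without a plate name alone, they had -2.18 (adjusted p = 0.259) and -0.88 (adjusted p = 0.596). The 19 endoderm markers summed to 462 to 699 CPM at E5.5 and 611 to 8458 CPM in T-negative sums, and 11 maternal decidua and blood markers to 10.9 to 39.1 and 0.4661 to 254.1 CPM, of which Prl8a2 and Hbb-b1 passed as higher. Their part in the result was not tested beyond leaving out embryo 2.

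The E4.5 primitive endoderm was compared with the ICM and with the epiblast of the same embryos. From ICM to PrE, Ifitm1 and Bst2 rose and the others did not pass, against 17.7% of genes tested that passed and 12.9% that passed upwards. Ifitm1 had a log2 fold change of 4.20 ± 0.94 (adjusted p = 0.00101), against 12 ICM counts, with embryos that did not overlap, as in 8.31% of genes. Bst2 had 2.38 ± 0.53 (adjusted p = 0.000945), 5.20-fold, and its embryos overlapped. In a fit of only the groups compared Bst2 had 2.33 (adjusted p = 0.181) and no longer passed, while it passed in the other 14 alternatives, with 1.41 (sums of at least 5 cells) to 2.62. Ifitm2 (-0.86 ± 0.41, adjusted p = 0.136) and Ifitm3 (-0.54 ± 0.92, adjusted p = 0.792) had values on the other side of 0. This comparison shares the ICM sums with the first one, and other comparisons in turn share the E4.5 epiblast-like, PrE-like, E5.5 or T-negative sums with their neighbours.

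Against the epiblast of E4.5, the 3 Ifitm genes were lower in the PrE, at a log2 limit of 2 for this comparison. There, 4.74% of genes tested passed and 1.89% passed as lower in the PrE. The log2 difference was -4.95 ± 1.07 for Ifitm1 (adjusted p = 0.00221), -3.12 ± 0.49 for Ifitm2 (adjusted p = 2.04e-05) and -4.05 ± 1.15 for Ifitm3 (adjusted p = 0.0247). None of the 3 overlapped between classes, as in 10.8% of genes. Bst2 had -1.80 ± 0.63 (adjusted p = 0.073) and did not pass. The call of Ifitm3 was lost when embryo 1 (adjusted p = 0.0785) or 2 (0.11) of plate P1, or embryo 4 (0.0537) or 5 (0.0833) of plate P2, was left out, with log2 differences from -4.40 to -3.62. It was also lost without 8 E4.5 epiblast-like cells that had clustered with E5.5 endoderm-like cells (-3.75, adjusted p = 0.0525), where Bst2 passed (-2.15, adjusted p = 0.0497). Under Ward clustering Ifitm1 (-2.98, adjusted p = 0.111) and Ifitm3 (-3.38, adjusted p = 0.102) were lost and Bst2 passed (-2.19, adjusted p = 0.047), and with sums of at least 1 cell Ifitm3 was lost (-4.08, adjusted p = 0.0769). With the embryo as a block Bst2 had -1.92 (adjusted p = 0.00779), under the log2 limit of 2.

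From the E4.5 PrE to the E6.5 endoderm, Bst2 alone among the 4 passed, against 11.3% of genes tested and 4.25% upwards. Its log2 fold change was 2.58 ± 0.62 (adjusted p = 0.00413), 6.00-fold, and its embryos did not overlap, as in 6.87% of genes. It passed in all 19 alternatives run, with values from 2.35 to 2.91. Ifitm1 (0.68 ± 0.87), Ifitm2 (0.38 ± 0.42) and Ifitm3 (-1.45 ± 0.98) did not pass. The E6.5 endoderm-like sum of embryo 6 of plate P2 held 841 CPM of the hemoglobin gene Hba-a1, and its 11 maternal and blood markers summed to 1592 CPM against 0 to 21.4 CPM in the other 6 embryos. Without it Bst2 had 2.64 (adjusted p = 0.00494). The summed level of 11 trophoblast markers was 129.1 to 236.7 CPM in PrE-like and 972 to 2179 CPM in E6.5 endoderm-like sums, and the part of either in the result was not tested beyond this.

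At E6.5 the 3 Ifitm genes were lower in endoderm-like than in T-negative sums, and Bst2 did not pass. In this comparison 15.3% of genes tested passed and 9.19% passed as lower in the endoderm. Ifitm1 had a log2 difference of -3.34 ± 0.80 (adjusted p = 0.00378), Ifitm2 of -3.20 ± 0.39 (adjusted p = 1.07e-07) and Ifitm3 of -3.91 ± 0.95 (adjusted p = 0.004). Ifitm2 alone had groups without overlap, as in 0.769% of genes. Bst2 had 0.39 ± 0.44 (adjusted p = 0.585), with an interval from -0.50 to 1.28 at 2 SE. With the embryo as a block only Ifitm2 passed (-3.34, adjusted p = 0.00206), while Ifitm1 had -5.66 (adjusted p = 0.0787) and Ifitm3 -5.24 (adjusted p = 0.1), in a fit on the embryos compared that called 526 genes. With embryos without a plate name alone, Ifitm1 had -0.93 (adjusted p = 0.685), and the calls of all 3 held without embryo 6 of plate P2.

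Whether the gap between endoderm and epiblast changed from E4.5 to E6.5 was tested directly, in a test added after the data were seen. The gap of Bst2 moved by 2.19 ± 0.76 on the log2 scale towards the endoderm (p = 0.00576, adjusted p = 0.0819), which missed the limit of 0.05 that 4.07% of genes tested passed. The gaps of Ifitm1 (1.61 ± 1.14, adjusted p = 0.521), Ifitm2 (-0.08 ± 0.56, adjusted p = 1) and Ifitm3 (0.14 ± 1.36, adjusted p = 1) did not pass either.

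**Figure D2:**
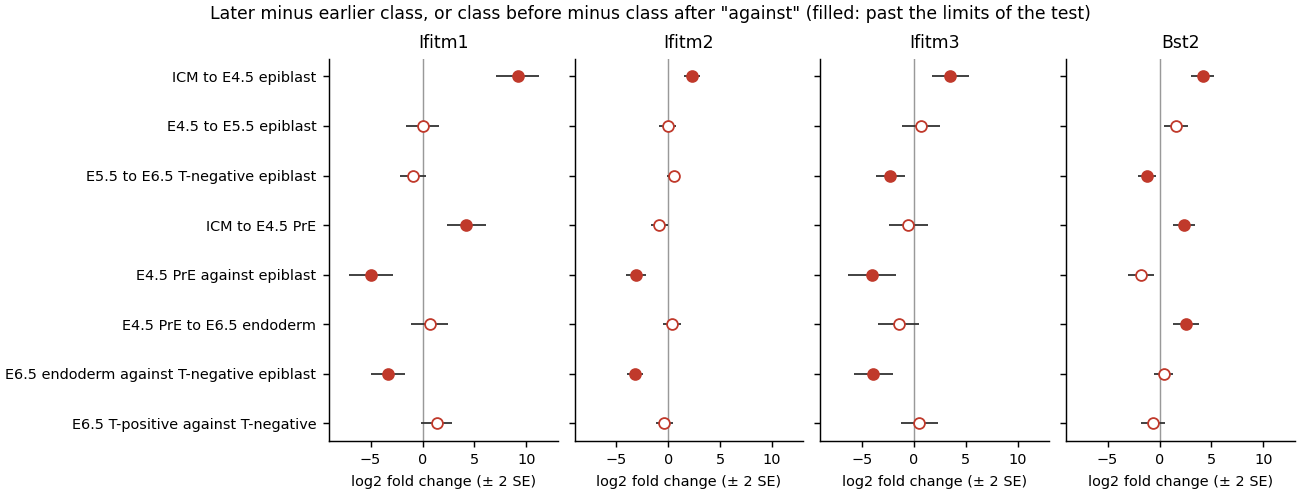
Log2 fold change with 2 SE on each side for the 4 genes in the 8 comparisons, as the later minus the earlier class or the class named before "against" minus the one after it; filled points passed the limits. Filled points lie to the right for all 4 genes in the step from ICM to E4.5 epiblast, and Bst2 alone is filled in the step from PrE to E6.5 endoderm, at 2.58.

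In the E5.5 endoderm-like class, of which 5 cells, all from embryo 7, were titled VE, Bst2 was found and the Ifitm genes were not. No count of any Ifitm gene was found in its 8 cells, which hold 8648634 counts in all, so that 3 counts would be 0.347 CPM. A count of 0 in 8 cells allows a share of cells with a count of up to 37.5%, for counting error only, and 5 of these cells share an embryo. Bst2 was at 10 CPM or more in 7 of these 8 cells, and the sum of 5 cells of embryo 7 held 357 CPM from 2320 counts. In the epiblast-like sum of that embryo Bst2 was at 314 CPM and Ifitm1 at 77.6 CPM. With 1 embryo there is no test, and the values describe these cells.

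The T-positive cells of E6.5, which express the streak factor Brachyury, were compared with T-negative cells of the same layer. None of the 4 members passed the limits by edgeR or by DESeq2 or had an unadjusted p under 0.05 by edgeR, where 0.223% of genes tested passed, all of these 38 genes upwards. DESeq2 called 51 genes, 21 upwards and 30 downwards, while edgeR called 7 without embryo 2 without a plate name and 1 with the embryo as a block. Ifitm1 had a log2 difference of 1.35 ± 0.76 (adjusted p = 0.709), Ifitm2 -0.38 ± 0.42 (adjusted p = 1), Ifitm3 0.50 ± 0.89 (adjusted p = 1) and Bst2 -0.63 ± 0.57 (adjusted p = 0.967). At 2 SE the interval for Ifitm1 ran from -0.16 to 2.87. T itself, which divided the cells, was at 61.8 to 127.2 CPM in T-positive sums and at 0 to 0.596 CPM in T-negative sums.

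The Ifitm1 difference lay in 1 embryo. In embryo 2 without a plate name, Ifitm1 was at 17.1 CPM in T-negative and at 388 CPM in T-positive cells. In embryo 3 of plate P1 it was at 45.4 and 35.03 CPM, in E6.75 embryo 1 at 32.5 and 41.96 CPM, and in E6.75 embryo 2 at 32.3 and 17.6 CPM. T-positive cells were thus higher in 2 of 4 embryos, and without embryo 2 the log2 difference was -0.66. With embryos of plates P1 to P3 alone it was -0.68, and with embryos without a plate name alone it was 2.39, not past the limits.

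In that embryo all 23 T-positive cells had counts of Ifitm1, from 77.8 to 1032 CPM with a median of 355, and 22 of them were at 100 CPM or more. They were also the 23 T-positive cells among the 24 primitive streak-like cells of the embryo, and their sum held 1584 CPM of 14 streak markers against 549 CPM in E6.75 embryo 2, the lowest of the 4. The median Ifitm1 level over T-positive cells was 7.25 CPM in embryo 3 of plate P1, 33.7 CPM in E6.75 embryo 1 and 23.8 CPM in E6.75 embryo 2, none of which had streak-like cells. The T-negative sum of embryo 2 without a plate name, of 8 cells that were mostly not streak-like, held 17.1 CPM of Ifitm1. Whether streak-like cells of other embryos share the high level cannot be told here, since 24 of the 25 streak-like cells came from that embryo.

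Bst2 went the other way in that embryo, with 383 CPM in T-negative and 66.8 CPM in T-positive cells. In the other 3 embryos the T-positive values were the higher, at 69.8 against 50.9, 98.2 against 95.4 and 110.5 against 80.5 CPM. Ifitm3 was at 59.9 CPM in T-negative and 20.96 CPM in T-positive cells of embryo 2, and higher in T-positive cells of the others, with 75.1 against 21.9 CPM in embryo 3 of plate P1. Ifitm2 was lower in T-positive cells in all 4 embryos, by the smallest margin in E6.75 embryo 2 (364 against 365 CPM). The T-negative sum of embryo 2 comes from 8 cells, 1 of them streak-like, and holds 5180 CPM of endoderm markers, against 2804 CPM in its T-positive sum. The part of these in the Bst2 value was not tested.

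**Figure D3:**
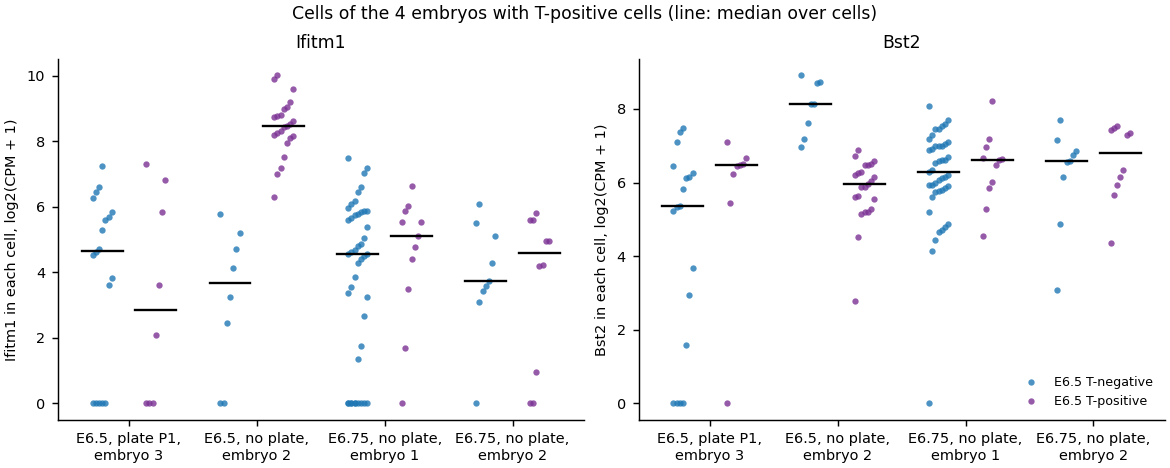
Ifitm1 (left) and Bst2 (right) as log2(CPM + 1) in each cell (points) of the 4 embryos with T-positive sums, blue for T-negative and purple for T-positive cells, with the median over cells as a line. In embryo 2 without a plate name 22 of 23 T-positive cells are at 100 CPM or more of Ifitm1, against 2 of 8 in embryo 3 of plate P1 and none in the E6.75 embryos.

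Over single cells, the share at 10 CPM or more broadly followed the sums, with an exception for Bst2 given below. For Ifitm1 it was 1.01% in the ICM, 88.9% in E4.5 epiblast-like, 8.97% in PrE-like, 81.1% in E5.5 epiblast-like, 56.4% in T-negative, 83.3% in T-positive and 20% in E6.5 endoderm-like cells. Over embryos, the T-negative share of Ifitm1 ran from 20% to 75%. Ifitm2 was at that level in 85.9% of ICM cells, in 65.4% of PrE-like and 67.5% of E6.5 endoderm-like cells, and in 99.6% to 100% of cells in every epiblast and T class.

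Ifitm3 was at 10 CPM or more in 17.2% of ICM, 77.8% of E4.5 epiblast-like, 14.1% of PrE-like, 85.7% of E5.5 epiblast-like, 46.8% of T-negative, 59.3% of T-positive and 12.5% of E6.5 endoderm-like cells. Bst2 was at that level in 22.2%, 85.2%, 46.2%, 98.5%, 82.7%, 94.4% and 95% of the same classes in the same order. Its share was thus higher in T-positive than in T-negative cells, while the mean of its sums was lower (86.3 against 133.5 CPM). Bst2 in E6.5 endoderm-like cells was found in nearly every cell, with a median of 157.5 CPM per cell. The lower PrE-like sums went with a smaller share of cells and with a lower level in the cells at 10 CPM or more. The median in such cells was 46.8 CPM in PrE-like and 162.9 CPM in E6.5 endoderm-like cells. Median depths of these classes ran from 532359 to 864576 counts per cell. After each cell was thinned to 300000 counts and taken as positive at 3 counts or more, the share for Ifitm1 was 88.5% in E4.5 epiblast-like, 57.8% in T-negative and 85.7% in T-positive cells.

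**Figure D4:**
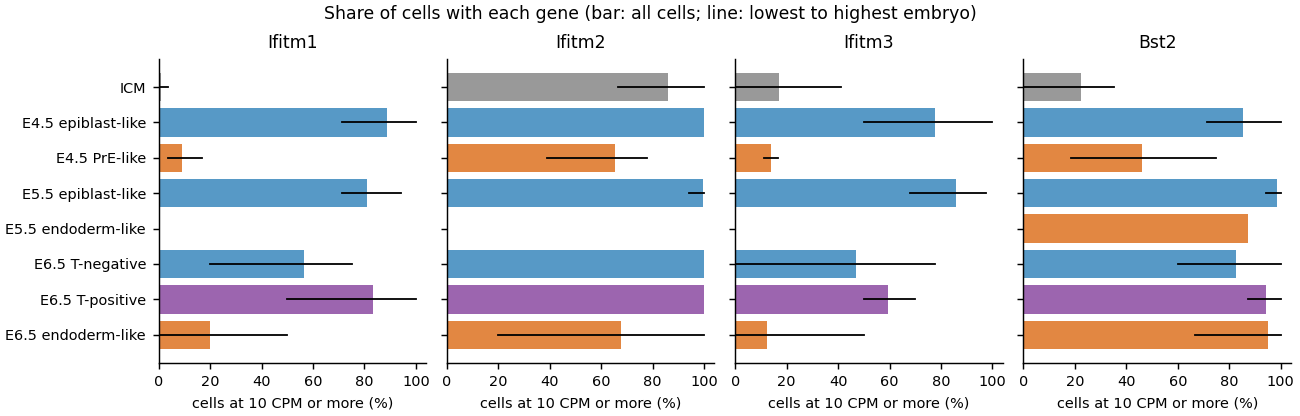
Share of cells at 10 CPM or more of each gene in each class, in percent of cells (bars), with the lowest to highest embryo as a line. Bars for the Ifitm genes are short in endoderm classes, except for Ifitm2 in E4.5 PrE-like (65.4%) and E6.5 endoderm-like cells (67.5%), and the Bst2 bars reach 87.5% in E5.5 and 95% in E6.5 endoderm-like cells.

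All 3 Ifitm genes were at 10 CPM or more in 74.1% of E4.5 epiblast-like, 71% of E5.5 epiblast-like, 30.8% of T-negative and 51.9% of T-positive cells. In PrE-like cells the share was 3.85%, in E6.5 endoderm-like cells 2.5%, and no ICM cell had all 3. Among T-negative cells, Ifitm1 was at that level in 65.8% of the 73 cells with Ifitm3 and in 48.2% of the 83 cells without it. These shares are a description. They were not set against what the shares of the single genes alone would give, and cells of an embryo share their source.

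Across the 52 sums, the log2(CPM + 1) levels of the Ifitm genes moved together, with Pearson's r of 0.78 for Ifitm1 and Ifitm3, 0.72 for Ifitm2 and Ifitm3 and 0.70 for Ifitm1 and Ifitm2. For Bst2 r was 0.60 with Ifitm1, 0.44 with Ifitm3 and 0.26 with Ifitm2. Sums of an embryo share its plate and handling, and sums of few cells have less depth, so these values are descriptions only. The gene nearest in pattern to Ifitm1 was Lef1 (r = 0.88), a transcription factor of the Wnt pathway, followed by Chd9, Crabp2, Nav2 and 2900041M22Rik. Ifitm2 was nearest to Snrpn (r = 0.83), then Tgif1, Snurf, Ina and L1td1, and Ifitm3 to the retinoic acid receptor gene Rarg (r = 0.83), then Bahcc1, 2900041M22Rik, Tor3a and Clca6. Bst2 was nearest to Aldh7a1 (r = 0.90), then Gm5506, the glycolytic enzyme gene Eno1, Igfbp2 and Cdk4.

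Other genes of the Ifitm family were low. Ifitm5, Ifitm6 and Ifitm7 have a row, 3 of 7 listed. Ifitm7 rose from 0 counts in the ICM to 49 counts in the E4.5 epiblast (adjusted p = 0.00032), 45.7-fold with the ICM set to 3 counts. Such folds pool the counts of a class and allow for counting error only, not for the spread between cells or embryos. Ifitm5 had a log2 fold change of -4.61 ± 1.41 from the E5.5 to the T-negative epiblast (adjusted p = 0.0232), where it had 10 counts. Ifitm6 was at 0 in all classes but the PrE.

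Interferons themselves were near absent. Of 21 listed, 19 have a row and 1 passed the filter on low counts, and the highest sum of all of them was 5.53 CPM, in a PrE-like sum. None was called in any comparison, while 1 gene, Ifnk, had an unadjusted p under 0.05 in 3 of the 8. Of 12 receptor and JAK-STAT genes none passed from the ICM to the E4.5 epiblast, where 2177 of 17043 genes tested rose and 1078 fell. In the PrE 2 of the 12 passed as higher than in the epiblast, as did 485 of all genes tested. These were the interferon gamma receptor gene Ifngr1 (log2 difference 6.31 ± 1.59, adjusted p = 0.00989) and Ifnar2, which had 0 counts in the E4.5 epiblast. Ifnar2 was 25.2-fold higher in the PrE with the epiblast set to 3 counts. Of the interferon regulatory factors, 6 of 8 were tested. Irf1 rose from the ICM to the E4.5 epiblast by 4.36 ± 1.04 (adjusted p = 0.00187), was lower in the PrE by -4.96 ± 1.37 (adjusted p = 0.0205) and rose from the PrE to the E6.5 endoderm by 4.0 ± 1.28 (adjusted p = 0.0332).

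The list of interferon-stimulated genes holds 45 genes other than the members, with 43 rows, of which 35 were tested. From the ICM to the E4.5 epiblast 8 of them rose and none fell, where 2177 of the 17043 genes tested rose (12.8%) and 1078 fell, with a median log2 fold change of 0 in the list and 0 over all genes tested, or 1.12 in the list with genes at 0 in a group set to 3 counts and without the 15 that had at most 3 counts in both. Oas2, which makes an activator of RNase L, and Rsad2, the gene for viperin, both had 0 counts in the ICM. With the ICM set to 3 counts, Oas2 was 203.3-fold and Rsad2 114.7-fold higher in the epiblast. These folds come from pooled counts and leave out the spread between cells and embryos. From the ICM to the PrE 10 rose and 2 fell, against 2193 and 822 of all genes tested (17.7% together), with the chemokine gene Cxcl10 going from 0 to 932 counts.

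From E4.5 to E5.5 epiblast 4 of the 35 rose and none fell, against 498 and 520 of all genes tested (5.97% together). The median was 2.70 against 0.28 over all genes, or 2.59 with genes at 0 in a group set to 3 counts. These 4 were Igtp, Cxcl10, Ifit2 and Irgm2, all with 0 counts in E4.5 epiblast-like sums, which were 4 to 7 cells each. With the E4.5 class set to 3 counts, the pooled folds were 68.2, 19.7, 20.0 and 14.6 in the same order. From E5.5 to the T-negative epiblast 12 of 35 fell and 1 rose, against 1151 and 966 of all genes tested (12.4% together), with a median of -2.41 against -0.01 over all genes. Among those that fell were the GTPase genes Gbp2, from 1009 counts to 1, and Mx2, from 552 counts to 2, and Oasl2, from 2591 to 41 counts (-5.27 ± 1.23, adjusted p = 0.00273). The summed level of the list was 142.7 to 328 CPM in E5.5 epiblast-like and 41.8 to 155.7 CPM in T-negative sums, and 8 of its 43 genes had a mean of 10 CPM or more at E5.5.

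In the endoderm, calls went both ways. Of the 35, 1 was higher and 2 were lower in the PrE than in the E4.5 epiblast, where 4.74% of all genes tested passed, 3 rose and 2 fell from the PrE to the E6.5 endoderm, where 11.3% passed, and 2 were higher and 5 lower in the E6.5 endoderm than in T-negative sums, where 15.3% passed. With so few genes these counts are not read as a result about the list. In the step from the PrE to the E6.5 endoderm Eif2ak2, the gene for the kinase PKR, rose by 3.81 ± 1.21 (adjusted p = 0.0305). Between T-positive and T-negative sums none of the 35 was called by edgeR or had an unadjusted p under 0.05.

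**Figure D5:**
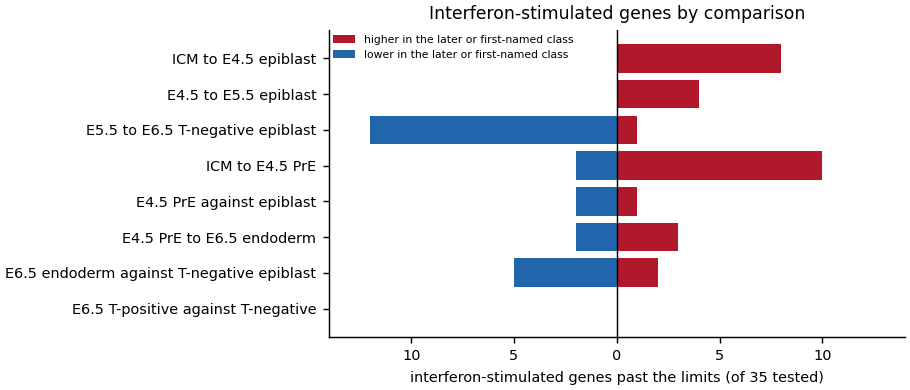
Number of the 35 tested interferon-stimulated genes, without the 4 members, that passed the limits in each comparison, to the right for higher and to the left for lower in the later class or in the class named before "against". The longest bar to the left, 12 genes, is the step from E5.5 to the T-negative E6.5 epiblast, in which Ifitm3 and Bst2 also fell.

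Of 14 tested genes for sensors of nucleic acids, Ddx58, the gene for RIG-I, rose from the ICM to the E4.5 epiblast by 7.53 ± 1.17 (adjusted p = 2.7e-06) and dropped by 3.62 ± 1.04 from there to E5.5 (adjusted p = 0.0265), where the sensor gene Zbp1 rose from 0 to 4225 counts. Ddx58 was among the genes most raised, against the other E4.5 cells, in the 8 E4.5 epiblast-like cells that had clustered with E5.5 endoderm-like cells. The part of these cells in the rise and the drop was not tested. Of 10 other restriction factors tested, 2 rose and 1 fell from the ICM to the E4.5 epiblast, where 2177 of 17043 genes rose and 1078 fell. Samhd1, the gene for a dNTP hydrolase, rose by 2.37 ± 0.59 (adjusted p = 0.00309) and rose again from the PrE to the E6.5 endoderm by 2.54 ± 0.69 (adjusted p = 0.0115), the same steps as Bst2. Apobec3, the gene for a cytidine deaminase, rose with the epiblast (2.13 ± 0.76, adjusted p = 0.0381) and was lower in endoderm at E4.5 (-3.09 ± 0.96, adjusted p = 0.0404) and E6.5 (-2.82 ± 0.76, adjusted p = 0.00901), as the Ifitm genes were.

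Of 8 germ cell precursor genes, 1 rose and 3 fell from the ICM to the E4.5 epiblast, where 2177 of 17043 genes rose and 1078 fell, and none passed between T-positive and T-negative sums, where 2 had an unadjusted p under 0.05. Dppa3, also known as Stella, fell from the ICM to the E4.5 epiblast (-4.16 ± 0.93, adjusted p = 0.000896), the step in which Ifitm1 and Ifitm3 rose. Prdm14 fell from 8 counts in E4.5 to 1 count in E5.5 epiblast-like sums (adjusted p = 0.0396). From E5.5 to the T-negative epiblast, the step in which Ifitm3 fell, 1 of the 8 rose and 2 fell, against 966 and 1151 of all genes tested. Prdm14 rose, to 35 counts (adjusted p = 0.012), while Dppa3 (-3.37 ± 0.63, adjusted p = 0.000151) and Dppa5a (-2.99 ± 0.35, adjusted p = 2.32e-08) fell by edgeR.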

How the data were processed

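Single cells of mouse embryos were profiled by RNA-seq. Per the labels and the study's methods, cells were lysed in wells and RNA was amplified by the G&T-seq protocol, libraries were made with Nextera XT and sequenced as paired ends, reads were trimmed and aligned to GRCm38, and reads of low mapping quality were removed before counting per gene in SeqMonk. The submitters' processing notes name Trim Galore 0.4.3 and HISAT2 2.0.5. The values are raw counts per gene as deposited by the authors, without normalization, in 1 table that the authors had filtered for cell quality. No columns were identical (0), and no column of values of other samples was found (0).

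Cells were clustered without 146 genes (the members, T and all listed genes), on genes detected in 6% to 94% of cells of the clustering, with 20 starts of k-means on 4% to 7% of dimensions, into 8 clusters over all cells and 5 at E6.5. All E3.5 cells were taken as ICM. The other clusters were named from markers of endoderm and epiblast and, at E6.5, of the primitive streak. Trophoblast markers were summed but named no cluster. E6.5 cells outside the endoderm were divided at 10 CPM of T. Sums of at least 3 cells per embryo and class were tested with edgeR's quasi-likelihood test (edgeR 4.0.16, R 4.3.3) after TMM normalization and a filter on low counts, in 1 fit over all classes, with adjusted p-values (Benjamini-Hochberg) over 17043 genes. A gene passed at an adjusted p under 0.05 and a log2 fold change over 1, or over 2 between the lineages of E4.5. Counts over all genes came from this fit. Cell shares used 10 CPM or more. Python 3.11.15 with pandas 2.3.3, scipy 1.17.1 and scikit-learn 1.9.0 did the rest, and the scripts were tested on simulated data.

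The members and the gene lists were chosen with earlier results of these data known. The 4 members were named in every comparison. Of each list, genes that passed could be named, up to the 6 with the largest absolute log2 fold change per comparison, and for each member the 5 genes with the highest correlation over all sums. Alternatives were DESeq2 1.42.0, relative log expression normalization, no filter, only the groups compared, single wells, Ward clustering, other limits for T, other minimum cell numbers, thinning to 300000 counts per cell (46 cells were shallower), plate subsets, merged embryos, the embryo as a block and leaving out embryos. The test of the change of lineage gap, the fit without a smaller cluster of 8 E4.5 epiblast-like cells and some embryos left out were added after the data were seen. At E4.5 both classes came from the same 5 embryos, so that the embryo pairs them. At E6.5 the 7 embryos with endoderm-like sums and the 4 with T-positive sums were among the 13 with T-negative sums. The embryo pairs the E6.5 classes only in part, and the main fit had no block for it. E6.5 embryos without a plate name may be the same animals as same-numbered embryos of plate P1, which the merged alternative covers. The labels give no litter, so that p-values measure the spread between sums of these embryos within classes, pooled over all stages in 1 fit.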

Additional observations from a re-analysis of the deposited data

Results flagged for a closer look

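In 4 of 24 groups of 4 to 10 embryos, 1 embryo lay far from the others by Dixon's test, which chance alone does in about 1 in 20 groups of values without ties. Ifitm1 was at 388 CPM in the T-positive sum of embryo 2 without a plate name, where the next highest T-positive sum held 41.96 CPM. In the ICM, Ifitm1 was at 0.742 CPM in embryo 6 of plate P9 and at 0 in the other 8, where any value above 0 would stand out by this test. In the E5.5 epiblast, embryo 3 of plates P7, P4 and P5 had both the highest Ifitm2 level, 679 CPM against 518 CPM in the next, and the highest Bst2 level, 428 CPM against 317 CPM. Bst2 had 2320 counts in the endoderm-like sum of E5.5 embryo 7, a class that enters no test, above the 3 counts taken as the limit of detection.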

How the results depend on the processing

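Of the log2 fold changes recomputed under alternatives, 483 kept their direction and their side of the threshold, 25 no longer passed, 6 newly passed and 25 reversed. The reversed ones are of members that passed no test in that comparison. The cause of a change was not tested. From ICM to E4.5 epiblast, 2 members were called with sums of at least 5 cells. From E4.5 to E5.5, 1 member was called (Bst2) with only the groups compared, single wells, sums of at least 5 cells or thinning. From E5.5 to E6.5, 1 was called with relative log expression normalization, without E6.75 cells or with merged embryos, and 0 with sums of at least 1 cell, plates P1 to P3 only or embryos without a plate name only. From ICM to PrE, 0 were called with only the groups compared, where Ifitm1 was filtered out and had no value. With the replicate block on embryos, 1 was called between E6.5 endoderm and T-negative epiblast, as with embryos without a plate name only.

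From E4.5 to E5.5, Ifitm1 reversed to -0.14 under DESeq2 and with relative log expression, -0.060 with no filter, -0.076 with only the groups compared, -0.084 with sums of at least 5 cells, -0.070 when thinned and -0.044 without the smaller cluster, and ranged from -0.21 to 0.22 when embryos were left out. Ifitm2 reversed to 0.11 with single wells, 0.27 under Ward clustering, 0.055 with sums of at least 5 cells and 0.28 without the smaller cluster, and ranged from -0.21 to 0.12 when embryos were left out. From E5.5 to E6.5, Ifitm2 was -0.081 with embryos without a plate name only. From PrE to E6.5 endoderm, Ifitm1 was -0.63 under Ward clustering, -1.49 with plates P1 to P3 and -1.48 without E6.75 cells, and Ifitm2 was -0.74 with embryos without a plate name. Between T-positive and T-negative sums, with plates P1 to P3, Ifitm1 was -0.68 and Ifitm2 0.19, and with embryos without a plate name Ifitm3 was -0.19. Leaving out embryos gave -0.66 to 1.68 for Ifitm1 and -0.19 to 0.87 for Ifitm3.

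Genes called over the whole table ranged from 1270 to 3338 for ICM to E4.5 epiblast (3255 as reported), 567 to 2148 for E4.5 to E5.5 (1018), 413 to 2800 for E5.5 to E6.5 (2117), 1517 to 3218 for ICM to PrE (3015), 310 to 1264 between the E4.5 lineages (807), 464 to 2161 for PrE to E6.5 endoderm (1919), 526 with the replicate block, and fewer with embryos without a plate name only, to 3103 between E6.5 endoderm and T-negative epiblast (2609) and 0 to 51 for T-positive cells (38). Leaving out E6.5 endoderm-like embryos in turn had been planned for groups of at most 5 and was not run for these 7, apart from embryo 6 of plate P2, which was chosen after seeing its blood markers. Of the shares of cells, 11 of 72 moved by more than the counting interval. The E4.5 epiblast-like sums, of 4 to 7 cells, and the ICM sums of 3 cells limit what can be seen there.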

Other observations

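The 25 primitive streak-like cells, which no comparison of the report used as a class, held Ifitm1 at 10 CPM or more in 96% of cells, Ifitm2 in 100%, Ifitm3 in 56% and Bst2 in 96%. In embryo 2 without a plate name their mean per cell was 393 CPM of Ifitm1, 499 CPM of Ifitm2, 19.6 CPM of Ifitm3 and 71.4 CPM of Bst2. The single streak-like cell of embryo 1 without a plate name had 52.7 CPM of Ifitm1. The single T-positive cells of embryo 5 of plate P2 and of embryo 1 without a plate name, which entered no sum, had 48.99 and 68.8 CPM of Ifitm1.

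The sensor gene Aim2 dropped from 656 counts in PrE-like sums to 2 counts in E6.5 endoderm-like sums (edgeR quasi-likelihood test, adjusted p = 0.000585), while Zc3hav1, the gene for the antiviral protein ZAP, rose by 3.02 ± 0.73 on the log2 scale (adjusted p = 0.00411), the step in which Bst2 also rose. Zc3hav1 was higher in E6.5 endoderm-like than in T-negative sums by 3.48 ± 0.51 (adjusted p = 3.72e-06). In other steps it went against Bst2. It fell from the ICM to the PrE (-2.51 ± 0.69, adjusted p = 0.00762), where Bst2 rose. From E5.5 to the T-negative epiblast it rose (2.04 ± 0.54, adjusted p = 0.00829), where Bst2 fell. It also fell from the E4.5 to the E5.5 epiblast (-3.36 ± 0.64, adjusted p = 0.000414), where Bst2 did not pass.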
